A study of Drosophila melanogaster with 12 samples.

Results

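The late against early effect of Unpaired (UPD) in Kc167 cells is the UPD minus Mock difference at 10 h minus the mean of the same difference at 2 h and at 4 h. It was read from 12 Affymetrix arrays, 2 biological replicates for each of 6 groups. The cells had been exposed for 30 min to UPD conditioned medium or to Mock conditioned medium, were then given plain Schneider's medium, and gave total RNA 2, 4 or 10 h after the exposure began. All 6 groups are cultures of the same cell line and differ in the conditioned medium and in time. The members are the 6731 probe sets, of 18769 that are not array controls, whose mean over the 12 arrays exceeded 5 on the log2 scale. Of these, 5910 name 1 gene, which makes 5628 genes, while 188 name several genes and 633 name none. Some members passed the level only through the medium in which they read higher. All levels and differences are on the log2 scale as deposited, so a difference of 1 is a doubling of signal, and a positive late minus early value means that UPD stood higher against Mock at 10 h than it had at 2 and 4 h.

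Unpaired is a secreted cytokine of Drosophila that binds the receptor Domeless, which activates the kinase Hopscotch and, through it, the transcription factor Stat92E. The pathway is known for its roles in blood cell development, immune response and embryonic patterning, and its targets include inhibitors and the receptor itself. A transient exposure followed by several sampling times can separate genes that respond and return to the control level from genes whose difference persists or appears late. Kc167 is an embryonic line with properties of blood cells, and 9 of 12 blood cell markers had a mean above 5, with a highest mean of 11.63 for SPARC, a collagen-binding matrix protein. None of 3 crystal cell markers passed that level, while 2 of 5 lamellocyte markers (PPO3 and mthl4) and 1 of 5 neuronal and glial markers with a probe set (elav) did. Of the muscle markers only Mlc2 had a probe set that names it alone, and its mean was −0.22. The blood cell markers NimC1, eater and He stayed below 5. Longer marker lists were less clear-cut. A mean above 5 was found for 10 of 20 plasmatocyte and embryonic blood cell markers on the array. The same held for 5 of 8 lamellocyte markers and 1 of 5 crystal cell markers.

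The precision at 10 h was much lower than at the earlier times. At 2 h the median replicate SD over the members was 0.060 (UPD) and 0.069 (Mock). It was 0.073 (UPD) and 0.144 (Mock) at 4 h, but reached 0.419 (UPD) and 0.469 (Mock) in the last samples. In the deposited values the median over all probe sets was 2.327 on each UPD array and 2.375 on each Mock array, but the medians of the members were not level. At 2 and 4 h they lay between 7.91 and 8.38 on the 8 arrays, whereas at 10 h they were 7.05 and 7.63 on the UPD arrays and 8.07 and 7.69 on the Mock arrays. The median late minus early difference over the members was −0.42, with a standard error of 0.355 from the spread of the replicate arrays, and it was 0.07 once the arrays had been shifted to a common median. In bulk RNA of this kind, fewer cells that express a gene and less RNA per cell cannot be told apart.

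No probe set passed the test of the late minus early difference itself. In limma, with array weights by time and Benjamini-Hochberg adjustment over 18769 probe sets, 0 had an adjusted p under 0.05 (0% called), and 947 had an unadjusted p under 0.05 (5.05%). Among the members, 14 of these lay above 0 (0.208%) and 879 below (13.1%). By size alone, 59 members had a late minus early value of at least 1 (0.877%) and 1222 a value of −1 or less (18.2%). Counted from the median of the members, 275 lay at least 1 above it (4.09%) and 430 at least 1 below (6.39%). The early effect, measured on the tighter arrays, had 53 members past the threshold (0.787%), 39 with UPD above Mock (0.579%) and 14 with UPD below (0.208%). That count was 11 without either UPD array of 4 h, 311 without the first Mock array of 4 h and 135 without the second. For the late effect no member passed (0%), although 27 above Mock (0.401%) and 1078 below (16%) had an unadjusted p under 0.05. For the early effect these numbers were 207 (3.08%) and 462 (6.86%). The genes below are therefore described by their values, their replicate error and the side on which the arrays lay, and none is called changed between early and late. When only the members were fitted and adjusted, 68 passed, 4 of them above 0 (0.0594%) and 64 below (0.951%). That setting changed both the fit and the number of tests adjusted for.

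A few genes with UPD above Mock early stood further above it late. On the deposited scale, most of that growth was on the Mock side. A member was counted as growing above Mock where the early difference was at least 0.5, the 10 h difference at least 1 and larger by 0.5, and both UPD arrays lay above both Mock arrays at each time. This held for 7 probe sets (0.104%), and for 13 relative to the array medians (0.193%). They are CG33459, CG10764, CG4793, CG13559, CG14253, pirk and 1 probe set that names no single gene, and all 7 were also in the class relative to the medians. Across the 7 the median change from early to 10 h was 0.53 on the UPD arrays and −1.74 on the Mock arrays. Over all members it was −0.74 and −0.23, so the share of each medium depends on the scale.

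CG4793, which belongs to the serine protease list, had the smallest p above 0. At 2 h its levels were 7.11 and 7.17 under UPD against 6.30 and 6.55 under Mock. At 4 h they were 7.42 and 7.30 against 5.55 and 5.71, and at 10 h 7.91 and 8.38 against 4.46 and 4.12. The groups did not overlap at any time, and each time point stood higher than the one before in UPD and lower in Mock. The early difference of 1.22 passed the test (limma adjusted p = 2.36e-05), the late difference was 3.85, and the late minus early value was 2.63 (SE 0.596, unadjusted p = 0.000555, limma adjusted p = 0.325). Leaving out single arrays kept it between 2.40 and 2.87. It passed the threshold under 7 alternatives, among them quantile normalization (adjusted p = 0.0104) and removal of the trend with gene length (adjusted p = 0.00953). The other 2 probe sets that name this gene had means of 3.07 and −1.03 and are no members.

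CG33459, in the same list, had the second largest positive value of all, 4.95 (SE 1.41, limma adjusted p = 0.495). At 2 h it read 5.65 and 5.79 under UPD against 4.98 and 4.84 under Mock. At 4 h it read 6.32 and 6.12 against 4.11 and 4.37, and at 10 h 7.60 and 8.04 against 4.53 and −1.58. The UPD arrays were higher at 10 h than at any earlier time, while the size of the difference depended on a single Mock array, the second of 10 h: without it the value was 1.89, and without the first it was 8.005 (adjusted p = 0.0353). CG10764 read 6.90 and 7.01 on the UPD arrays of 10 h against 1.56 and 4.53 on the Mock arrays, beside an early difference of 1.08 (limma adjusted p = 0.00563). Its late minus early value was 2.83 (SE 0.896, limma adjusted p = 0.568) and ranged from 1.35 to 4.31 as single arrays were left out. CG10764 too is a member only through its UPD arrays, with a mean of 5.587 and Mock group means of 5.643, 5.038 and 3.045.

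CG13559, listed among reported JAK/STAT targets, differed from these in that its Mock level stayed level. The UPD arrays read 8.27 and 8.32, then 8.25 and 8.33, then 8.87 and 9.82 over the sampling times. The Mock arrays read 6.80 and 6.67, then 6.43 and 6.31, then 6.91 and 5.95. UPD lay above Mock on every array at every time, with an early difference of 1.74 (limma adjusted p = 1.1e-07) and a late difference of 2.91. The late minus early value of 1.18 (SE 0.515, limma adjusted p = 0.906) came with a change of 1.05 in UPD and −0.12 in Mock. CG14253 and pirk, an inhibitor of the Imd immune pathway, were in the same class with smaller values of 1.13 (SE 0.600) and 0.61 (SE 0.615), less than 2 standard errors each. For pirk both media were lower at 10 h than early, by −1.32 in UPD and −1.93 in Mock.

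**Figure D1:**
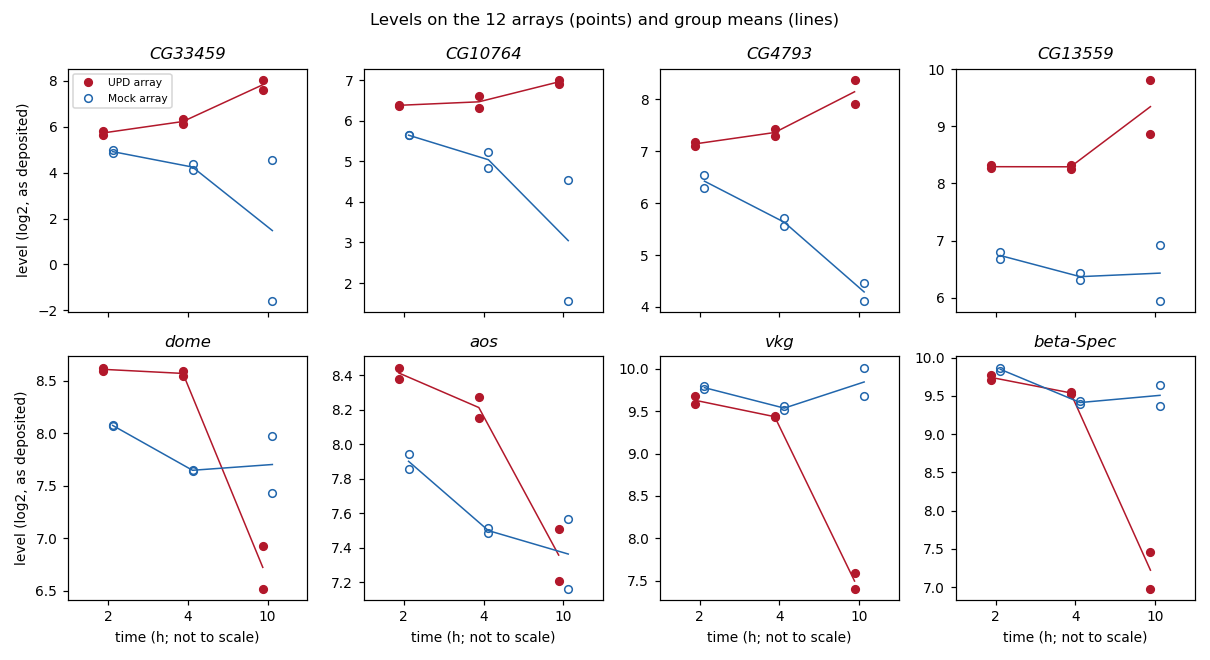
Level (log2, as deposited; each panel has its own vertical scale) of 8 genes against time on the UPD arrays (filled) and the Mock arrays (open), with lines through the group means of 2 arrays. The upper genes stand further above Mock at 10 h than early, with CG33459 ending at 7.60 and 8.04 in UPD against 4.53 and −1.58 in Mock; in the lower row dome crosses Mock, aos meets it, and vkg and beta-Spec lie clearly under it at 10 h.

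On the deposited scale, the Mock arrays also moved more than the UPD arrays in most members with large positive values. Among 33 members with a value of at least 1 and UPD above both Mock arrays at 10 h, the Mock change was the larger in all but 3. The 33 were chosen by the UPD change minus the Mock change, so this is no separate result. Their median change was 0.06 in UPD and −1.40 in Mock, beside −0.74 and −0.23 over all members. These 33 include CG33459, CG10764, CG4793, CG13559 and CG14253 of the growing class. Idgf1, a chitinase-like secreted growth factor, had the largest value of all, 5.27 (SE 1.37, limma adjusted p = 0.434). Its UPD arrays of 10 h read 6.81 and 7.30 and its Mock arrays −1.64 and 4.09, against 5.34 to 7.01 on the 8 earlier arrays. Without the first Mock array of 10 h the value was 2.41 and without the second it was 8.14. Idgf1 is a member only through its UPD arrays, with a mean of 5.646 and Mock group means of 6.462, 5.775 and 1.229. CG6357 was steadier: its Mock arrays read 6.09 and 5.78 at 10 h, its UPD arrays 8.73 and 8.74, and its value was 2.42 (SE 0.710, limma adjusted p = 0.523), between 2.24 and 2.60 without single arrays. Sid, a stress-induced DNase, had a value of 2.95 (SE 0.951, limma adjusted p = 0.574), with 5.97 and 6.43 in UPD against 3.29 and 2.31 in Mock at 10 h. Its mean was 5.044 and its Mock group means were 5.31, 4.87 and 2.801, so the same holds for its membership.

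Members at least 1 above Mock at 10 h without overlap, after an early difference under 0.25 in size, were few as deposited, 27 (0.401%), and 297 relative to the array medians (4.41%). This count rested on single arrays, being 149 and 11 without the first and the second UPD array of 10 h and 92 and 166 without the first and the second Mock array. Its 5 largest single-gene members were CG10973, Ugt36A1, CG8441, CG18178 and l(3)80Fg, with late minus early values between 1.27 and 1.51 and SEs from 0.623 to 0.826. CG10973 read 7.67 and 7.96 in UPD and 5.53 and 7.20 in Mock at 10 h, so the separation from the nearer Mock array was under 1. The class limits the size of the early difference and not its side: the UPD arrays of CG18178, 8.66 and 8.59, were already above both Mock arrays, 7.76 and 8.52, at 4 h. The value of chico, the insulin receptor substrate, was 1.79 (SE 1.16) and rested on the first Mock array of 10 h, which read 2.78 where the second read 6.94: without that array it was −0.29.

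On the deposited scale, the early responders that had been called higher under UPD mostly kept their side but not their size. Of the 39, 26 had UPD above Mock at 10 h, 15 of them without overlap (3.11% of all members were above without overlap at 10 h), and 13 had it below, 3 without overlap. The 39 were picked by their early difference. Their median was 0.64 early and 0.42 late, beside −0.03 and −0.46 over all members. The difference was larger at 10 h in 13 and larger by at least 0.5 in 7. Over all members, 1516 of 6731 had a late minus early value above 0. Relative to the median 10 h difference of all members, −0.46, 36 of the 39 were above. Of the 14 called lower, 13 stayed below Mock, 11 without overlap (41% of all members were below without overlap), and 9 were further below (77.5% of all members had a late minus early value below 0). Relative to the median 10 h difference, 12 of the 14 were below.

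Spn31A, a serpin, and Hsp27, a small heat shock protein, were examples of a difference that persisted on the deposited scale. Relative to the array medians, both were in the class that grows above Mock. Spn31A read 6.97 and 7.16 in UPD against 5.83 and 5.73 in Mock at 2 h, and 6.93 and 7.49 against 5.41 and 4.82 at 10 h. Its early difference was 1.69 (limma adjusted p = 9.64e-07) and its late difference 2.10, with a late minus early value of 0.41 (SE 0.602). Hsp27 had 0.99 early (limma adjusted p = 1.7e-05), with 8.38 and 8.80 in UPD against 7.20 and 7.02 in Mock at 10 h, a late difference of 1.48 and a late minus early value of 0.49 (SE 0.463). For neither gene did the arrays overlap at any time, and for both the late minus early value was under 2 standard errors.

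Other early responders had met the Mock level by 10 h. The class that fades from above, with a clear early difference of at least 0.5 and less than 0.25 in size at 10 h, held 7 genes (0.104%), and 6 probe sets relative to the array medians (0.0891%), none of them shared. The class that fades from below held 1 probe set that names no single gene (0.0149%), and 3 relative to the medians (0.0446%). The 7 from above are CG4080, CG9171, drongo, CG32772, aos, Pat1 and CG1628. CG4080 read 8.19 and 8.10 in UPD against 7.24 and 7.32 in Mock at 2 h, then 8.15 and 8.03 against 6.86 and 7.06 at 4 h, then 6.27 and 7.14 against 6.81 and 6.76 at 10 h. Its Mock arrays lay between the UPD arrays at 10 h, where they had been below them before. The early difference was 1.00 (limma adjusted p = 2.68e-05), the late difference −0.08, and the late minus early value −1.08 (SE 0.496, limma adjusted p = 0.97). The gene aos encodes Argos, a secreted inhibitor of the EGF receptor. It read 8.38 and 8.45 in UPD against 7.86 and 7.95 at 2 h and 7.21 and 7.51 against 7.57 and 7.16 at 10 h. Its early difference of 0.61 passed the test (limma adjusted p = 0.0011) and its late minus early value was −0.62 (SE 0.433). The fading rests on the deposited scale: relative to the 10 h median, these genes stayed above.

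**Figure D2:**
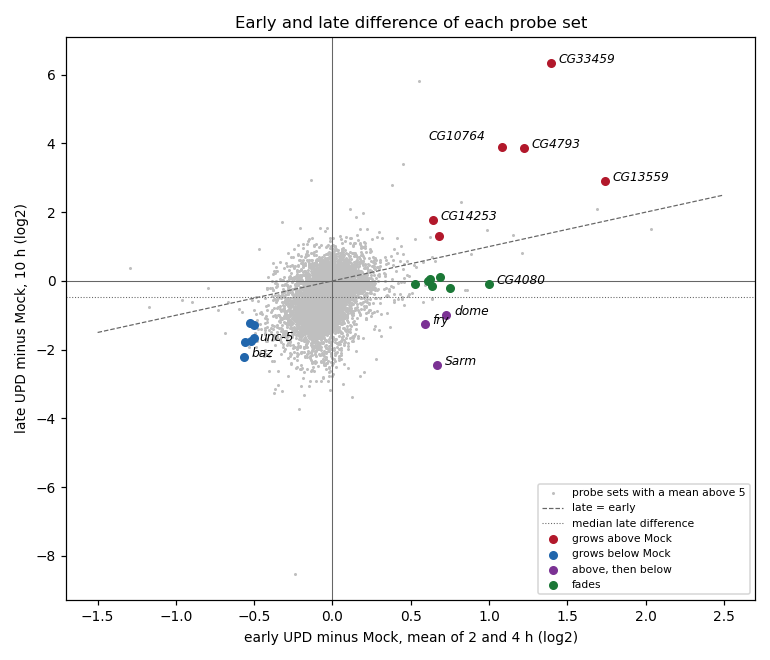
Late UPD minus Mock difference (10 h, log2) against the early difference (mean of 2 and 4 h, log2) for 6731 probe sets, with the single-gene members of the named classes and dome in colour. The late axis spans several times the early one, the bulk lies around −0.46 on it (dotted), and points far above the dashed line of equality have the largest late minus early values.

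The receptor gene dome stood on opposite sides of Mock early and late. Domeless is the signalling receptor of the Unpaired ligands and its gene is among the reported targets of the pathway. It read 8.62 and 8.59 under UPD against 8.07 and 8.07 under Mock at 2 h, and 8.59 and 8.54 against 7.64 and 7.65 at 4 h. At 10 h it read 6.52 and 6.92 under UPD against 7.97 and 7.43 under Mock. The UPD arrays were above both Mock arrays at 2 and 4 h and below both at 10 h, and the Mock level moved by only −0.16 from early to late while the UPD level moved by −1.87. The early difference was 0.73 (SE 0.0729, limma adjusted p = 0.00013), the late difference −0.98 (SE 0.409), and the late minus early value −1.71 (SE 0.415, unadjusted p = 0.00102, limma adjusted p = 0.37). Its direction was kept under all 27 alternatives, between −1.98 and −0.93, and it passed the threshold under 3 of them, among them the setting of values below 3 to 3 (adjusted p = 0.0407). It is encoded by a gene of 7458 bases, and removal of the trend with gene length gave the smallest size of the range.

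Stat92E, the transcription factor of the pathway, had early differences of opposite sign at 2 h and 4 h. It read 10.13 and 10.12 under UPD against 10.38 and 10.39 at 2 h, 10.21 and 9.96 against 9.76 and 10.06 at 4 h, and 9.11 and 9.69 against 9.16 and 9.81 at 10 h. The UPD minus Mock difference was −0.26 at 2 h, without overlap, and 0.18 at 4 h, where the arrays overlapped. Its late minus early value was −0.04 (SE 0.457), its arrays overlapped at 10 h, and the sign turned under 8 alternatives. The list of ligands, receptors and kinase had 7 genes, of which 5 were on the array as single-gene probe sets and these 2 had a mean above 5. Among 13 inhibitors and partners of the pathway with a mean above 5, all had late minus early values below 0, as did 77.5% of all genes. Of the 13, 2 had an unadjusted p under 0.05, against 759 of 5628 genes with such a p below 0 (13.5%). These were the SOCS family members Socs16D, with −2.53 (SE 0.716, limma adjusted p = 0.487), and Socs44A, with −1.01 (SE 0.443, limma adjusted p = 0.907). Socs16D read 4.20 and 2.63 under UPD and 6.02 and 5.83 under Mock at 10 h. The list median was −0.51, beside −0.43 for all genes. The 12 reported targets had a median of −0.13, with 5 above 0 and 4 called higher early (0.579% of members), and they ranged from −1.71 for dome to 1.18 for CG13559. The list was written with earlier results of these data known, so the early calls are no separate support.

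The side of each array was also counted over all members. UPD lay above both Mock arrays at 2 and 4 h in 174 (2.59%), and also at 10 h in 29 of them (0.431%). It lay below in 513 (7.62%), and also at 10 h in 383 (5.69%). The sides were opposite in few. Of the 174, 37 had UPD below both Mock arrays at 10 h (0.55% of all members). Of the 513, 4 had UPD above both at 10 h (0.0594%). At 10 h alone, UPD lay below both Mock arrays in 2757 members (41%) and above both in 209 (3.11%). The early difference of the 37 was small, from 0.06 to 0.73 with a median of 0.27, and that of dome was the largest. Of them, 33 name 1 gene, their genes had a median length of 12305 bases beside 2702 for all members, and 21 had an unadjusted p under 0.05. With the further minimum of 0.5 early and 1 late, 2 were left (0.0297%), Sarm and fry, and none in the opposite order (0%). Relative to the array medians 1 was left (0.0149%), Sarm, and fry was not. Fry encodes Furry, a large partner of NDR family kinases. It read 8.48 and 8.43 under UPD against 7.21 and 7.78 at 4 h, and 5.67 and 6.12 against 6.75 and 7.56 at 10 h. The early difference was 0.59 (limma adjusted p = 0.0321), the late one −1.26, and the late minus early value −1.85 (SE 0.627, limma adjusted p = 0.597). Without the first Mock array of 4 h neither gene met the class, since their early difference rests in part on that array.

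Sarm, a TIR-domain protein that acts in axon degeneration, had a value of −3.10 (SE 0.936, limma adjusted p = 0.537). It read 3.19 and 2.39 under UPD against 4.76 and 5.68 under Mock at 10 h. Of its 9 probe sets, 3 are members and the other 2 of these had late differences between −0.62 and −0.52, so the size belongs to 1 probe set. The adaptor gene cindr had an early difference of 0.58 (limma adjusted p = 0.0087) and 5.99 and 6.58 under UPD against 7.02 and 6.75 at 10 h, near the median of all members at that time, with a late minus early value of −1.18 (SE 0.509, limma adjusted p = 0.888). The gene lama, a reported target, had 5.91 and 6.13 against 7.15 and 6.71 at 10 h and a late minus early value of −1.18 (SE 0.470, limma adjusted p = 0.794) after an early difference of 0.27. Efa6, an Arf6 exchange factor with 0.86 early (limma adjusted p = 0.00014), stood at −0.26 late with overlapping arrays.

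Genes that were below Mock early and further below it late also numbered 7 (0.104%), but 1 relative to the array medians (0.0149%). They are baz, mlt, unc-5, by, Usp15-31, Ctps and 1 probe set that names no single gene. The netrin receptor gene unc-5 read 8.0 and 8.05 under UPD against 8.44 and 8.44 at 2 h, 7.67 and 7.42 against 8.08 and 8.25 at 4 h, and 6.34 and 6.69 against 8.55 and 7.96 at 10 h. UPD was below Mock on every array at every time, and the Mock level was almost level. The early difference was −0.52 (limma adjusted p = 0.00877), the late one −1.74 and the late minus early value −1.22 (SE 0.458, limma adjusted p = 0.711). The tensin gene by had −0.50 early (limma adjusted p = 0.0116), −1.66 late and −1.16 as late minus early (SE 0.459). The largest size was that of baz, the polarity protein Bazooka, with −1.64 (SE 0.916), less than 2 standard errors. For Ctps, CTP synthase, the class came from 1 probe set with −0.69 (SE 0.493), and its other member read 0.29. The class was unsteady, with 25 and 27 probe sets without the first UPD and the first Mock array of 4 h, 15 without the second UPD array of 2 h, and 2 and 4 without the second Mock array of 4 h and the first Mock array of 10 h.

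Of the genes called lower early, CecB was the only named gene whose mean lay above Mock at 10 h. This cecropin gene had an early difference of −1.29 (limma adjusted p = 0.00763) with 5.35 and 4.41 under UPD against 6.58 and 7.22 under Mock at 4 h. At 10 h it read 4.27 and 4.97 against 4.30 and 4.18, so the arrays overlapped, and the late minus early value was 1.67 (SE 1.11, limma adjusted p = 1). Both media were then below their early levels, by −0.51 in UPD and −2.18 in Mock.

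The most numerous class was a difference of at least 1 below Mock at 10 h after an early difference under 0.25 in size. It held for 1237 members as deposited (18.4%) and 361 relative to the array medians (5.36%), and their Mock level was near its early one. The count was 782 and 1987 without the first and the second UPD array of 10 h, and 2042 without the second Mock array. Over 1198 members with a value of −1 or less and UPD below both Mock arrays at 10 h, the UPD change was the larger in every member. These members were chosen by the UPD change minus the Mock change, so this is no separate result. The medians were −1.54 in UPD and −0.20 in Mock, beside −0.74 and −0.23 over all members. HERC2, a large ubiquitin ligase, had the smallest p, with −8.30 (SE 1.31, unadjusted p = 1.7e-05, limma adjusted p = 0.167). It read between 5.77 and 6.95 on the 8 earlier arrays, −0.05 and −4.12 under UPD at 10 h and 7.24 and 5.67 under Mock. The UPD readings are in the range of dim probe sets, and with values below 3 set to 3 its difference was −3.21. HERC2 is a member only through its Mock arrays, with a mean of 5.116 and UPD group means of 6.781, 6.147 and −2.084. The gene sol, a calpain-like protease, read 5.25 and 4.77 against 8.38 and 7.74 at 10 h and had −2.89 (SE 0.460, limma adjusted p = 0.167), and it passed the threshold under 9 alternatives.

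Genes of the basement membrane, the sheet of collagen, laminin and linked proteins that blood cells of the fly secrete, lay low together. Of 14 with a mean above 5, 8 had an unadjusted p under 0.05 below 0 (13.5% of all genes) and none above. None passed the adjusted threshold, and 10 had UPD below both Mock arrays at 10 h (41% of all members). The list median was −1.09, beside −0.43 for all genes, and the median gene length of the list was 14363 bases, beside 2612. The collagen IV chain vkg read 9.67 and 9.58 under UPD against 9.80 and 9.76 under Mock at 2 h, 9.43 and 9.44 against 9.56 and 9.51 at 4 h, and 7.41 and 7.59 against 10.01 and 9.67 at 10 h. The UPD arrays of 10 h were lower than all other 10 arrays, and the Mock arrays of 10 h were at the early level. Its value was −2.22 (SE 0.382, limma adjusted p = 0.191), and −1.67 under quantile normalization (adjusted p = 0.00563). Its partner chain Col4a1 read 7.55 and 8.19 against 10.54 and 9.87 at 10 h and had −2.30 (SE 0.424, limma adjusted p = 0.267).

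Matrix proteins beyond collagen followed in part. Ppn, papilin, had −2.26 (SE 0.639), Pxn, peroxidasin, −1.73 (SE 0.474), and Tig, the integrin ligand tiggrin, −1.71 (SE 0.450), with limma adjusted p-values between 0.437 and 0.487. Tig was 0.30 above Mock early and read 6.67 and 7.36 against 8.48 and 8.38 at 10 h. Those near or above 0 were SPARC with −0.12, Fas1 with 0.39 and trol, perlecan, with 0.53. In the list of integrins and linkers all 12 genes were below 0, as were 77.5% of all genes, with a median of −0.64, and rhea, talin, which links integrins to actin, had −1.55 (SE 0.415, limma adjusted p = 0.437). The cytoskeletal gene beta-Spec read 6.98 and 7.46 against 9.64 and 9.37 at 10 h, with −2.29 (SE 0.383, limma adjusted p = 0.187). In all, 4 of the 14 matrix genes are also among the 10 blood cell markers, whose median was −1.08.

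Chromatin regulators held some of the largest sizes. Among 25 histone modifiers and heterochromatin genes, 8 had an unadjusted p under 0.05 below 0 (13.5% of all genes). Of the 25, 1 lay above 0, beside 1264 of all 5628 genes. The list median was −0.82, beside −0.43 for all genes. The median gene length of the list was 5675 bases, beside 2612. The methyltransferase trr read 4.34 and 4.78 under UPD against 7.20 and 6.54 under Mock at 10 h, with −2.35 (SE 0.541, limma adjusted p = 0.353). Its complex partner Lpt, outside the list, had −3.17 (SE 0.821) and read 1.64 and 4.01 against 6.04 and 5.96. The deacetylase HDAC6 had −2.83 (SE 0.748), and the heterochromatin protein Su(var)3-7 had −2.28 (SE 0.778). Others of the same list did not stand apart from 0: HDAC1 had −0.18, Pc, the founding Polycomb gene, −0.13 and Sirt6 0.17. Further large sizes belonged to e(y)3, a SWI/SNF complex subunit, with −3.51 (SE 0.908), to the testis gene topi with −3.15 (SE 1.06) and to the formin gene form3 with −3.06 (SE 0.857), which read under 5 on each UPD array of 10 h. The feedback inhibitor sty, Sprouty, had −1.79 (SE 0.406, limma adjusted p = 0.325), although a dimmer probe set of the same gene had −0.35.

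Ribosomal protein and respiratory chain genes lay nearer to 0 than the median gene. Of 60 mitochondrial ribosomal protein genes with a mean above 5, 42 had a late minus early value above 0 (1264 of 5628 over all genes), with a median of 0.10, a range from −0.60 for mRpL22 to 0.70 for mRpL33, and no unadjusted p under 0.05. The 29 cytosolic ribosomal protein genes had a median of −0.25 and the 40 genes of the respiratory chain and ATP synthase −0.15. The median gene lengths of these 3 lists were 856, 1176 and 1304 bases, beside 2612 for all genes. The 12 glycolytic and related enzymes, with a median length of 4504 bases, lay on the other side of the median gene, with a list median of −0.64. All were below 0, as were 77.5% of all genes, and 3 had an unadjusted p under 0.05 (13.5% of all genes below 0). These 3 included Pfrx with −1.70 (SE 0.590) and Pfk, phosphofructokinase, with −1.64 (SE 0.527). Myc and ribosome biogenesis genes, 28 in number, had a median of −0.06, from −2.78 (SE 0.838) for Mnt, the antagonist of Myc, to 0.92 (SE 0.571) for the nucleolar gene mod, whose value was −0.01 without the first Mock array of 10 h.

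Lists of intermediate position included the vacuolar ATPase and cathepsins, with a median of −0.65 and 6 of 18 under an unadjusted p of 0.05 below 0, and the unfolded protein response, with −0.77 and 3 of 14. In the latter, the chaperones Gp93 and Hsc70-3 had −1.33 (SE 0.536) and −1.17 (SE 0.491). The cell cycle list of 28 had −0.56 with 3, where 13.5% of all genes were under that p below 0, and the list of cell death regulators, 11 in number, ran from −2.24 (SE 0.978) for the giant apoptosis inhibitor Bruce to 2.95 for Sid. Among lists with 5 or more genes, heterotrimeric G protein subunits had the highest median, 0.50 over 5 genes, with 0.86 (SE 0.650) for Galphaq, and none had an unadjusted p under 0.05. Over the 9 serine proteases and serpins the median was −0.71, though CG33459, CG4793 and Spn31A, the 3 called higher early, were the only members above 0, and Spn27A was the lowest with −1.19 (SE 0.808). CG10764, with a value of 2.83, was not in this list. No list held a gene past the adjusted threshold for the late minus early difference.

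**Figure D3:**
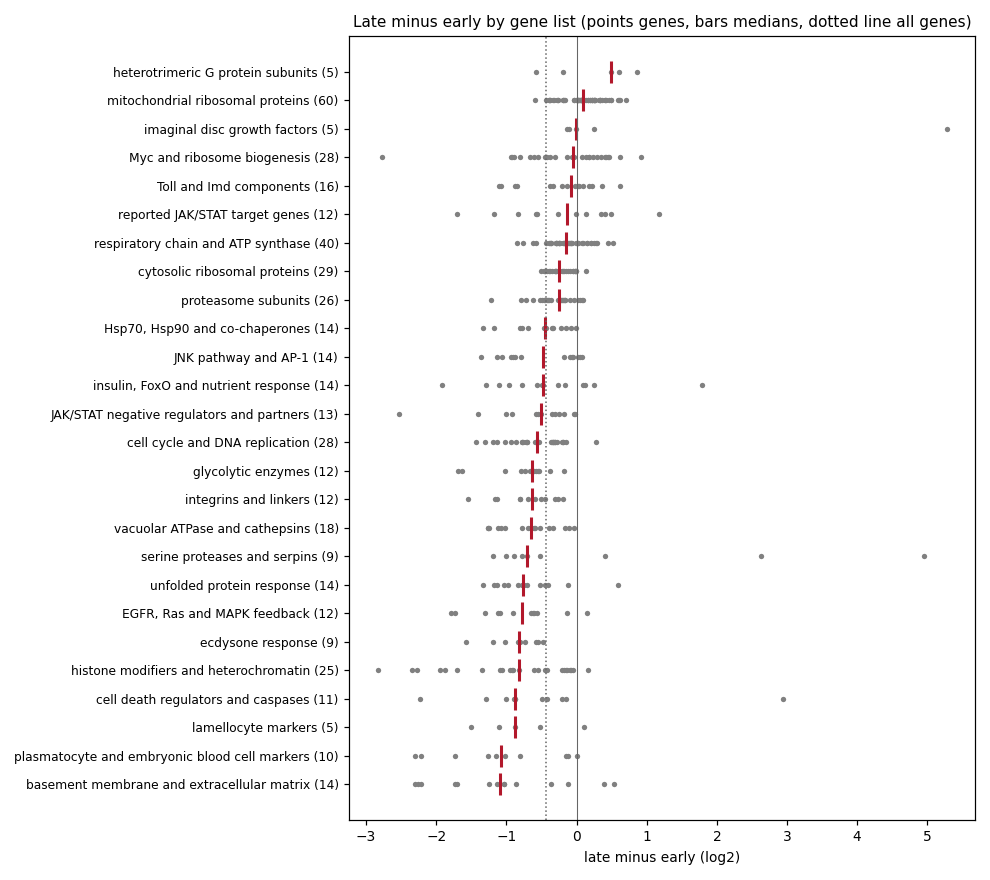
Late minus early difference (log2) of each gene with a mean above 5 (points) and the median (bars) in 26 gene lists with 5 or more such genes, number of genes in parentheses; the dotted line is the median of all genes, −0.43. Basement membrane genes lie lowest with −1.09, and G protein subunits (0.50) and mitochondrial ribosomal proteins (0.10) highest.

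The late minus early value went with the length of the gene. In 5 classes of genomic length, with 1178 or 1179 probe sets each, the median was 0.01 in the shortest (305 to 1402 bases), −0.37, −0.55 and −0.70 in the next, and −0.80 in the longest (6948 bases and more). The share above 0 was 50.4% in the shortest class and 13.2% in the longest. Across 5891 probe sets matched to a length, Spearman's rho was −0.462, given as a description since probe sets of an array are not independent. The same was seen within each medium, with rho of −0.689 for the change from early to 10 h in UPD and −0.428 in Mock, and medians of −1.32 and −0.49 in the longest class. At 2 h the UPD minus Mock difference had a rho of −0.405 and at 4 h −0.001.

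At the low end of the scale the genes were long, while those at the high end were near the median length. The 100 lowest values, −2.04 or less, belonged to genes with a median length of 8289 bases and the 100 highest, 0.78 or more, to genes with a median of 2572, beside 2702 over all members. The array's control probe sets measure RNA at the 3′ and the 5′ end of 3 transcripts. The 3′ minus 5′ difference at 10 h was 0.58 and 0.55 in UPD and 0.66 and 0.46 in Mock for actin, against 0.53 to 0.75 on the earlier arrays, so 1 Mock array lay below that range. For GAPDH it was 0.52 and 0.24 in UPD and 0.34 and 0.25 in Mock, against 0.21 to 0.48 earlier, so 1 UPD array lay above. For eIF-4a it was 1.04 and 0.93 in UPD and 0.73 and 1.21 in Mock, against 0.50 to 0.87 earlier. Both UPD arrays and the second Mock array thus lay above that range. The part that RNA quality, array scale or gene length has in the late minus early values was not tested. Once the trend with length had been removed, 44 members passed the threshold, 27 above 0 and 17 below, with CG4793, CG6357, Sid and CG14253 above and HERC2, sol and beta-Spec below, while vkg and Col4a1 did not pass.

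**Figure D4:**
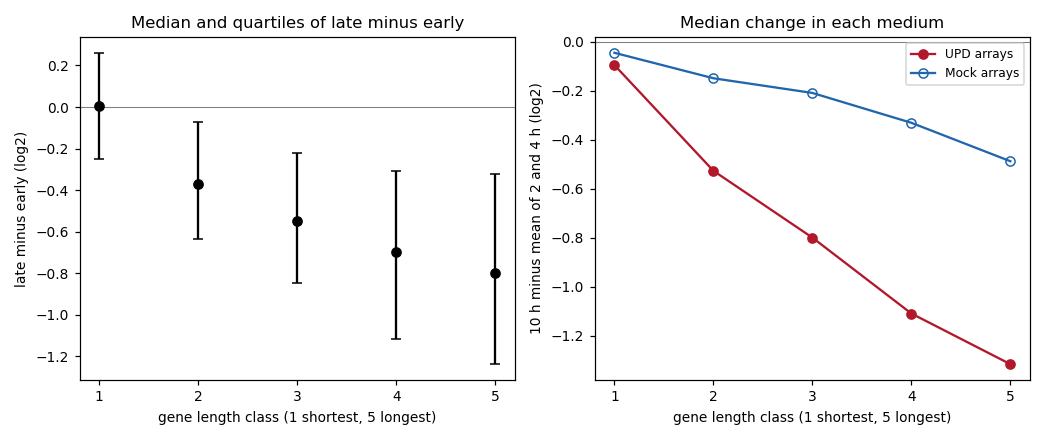
Left, median and quartiles of the late minus early difference (log2) in 5 classes of gene length; right, median change from the early times to 10 h (log2) on the UPD arrays (filled) and the Mock arrays (open) in the same classes of 1178 or 1179 probe sets. The late minus early median goes from 0.01 in the shortest to −0.80 in the longest class, and both media go down with length, UPD more steeply.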

How the data were processed

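Titles gave the medium, time and replicate number of the 12 arrays. The authors deposited 1 value per probe set and array, used here as log2 values, with the base of the logarithm, the summarisation and the scaling not given in the sources used here. Base 2 was inferred from the range of the deposited log2 values. Of 18952 probe sets, the controls were left out of all tests. Gene names are those of GEO's platform annotation, brought up to date with a RefSeq gene table (assembly Release 6) in which 5891 members were found by gene ID. The same table gave genomic gene length. No coordinates are printed, with the build behind the array not given in the sources used here.

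A model of 6 group means was fitted to all 12 arrays and 18769 probe sets in R 4.3.3 with limma 3.58.1. Array weights had 1 variance per time (4.94 at 2 h, 1.43 at 4 h and 0.141 at 10 h), estimated on the members. Empirical Bayes moderation used a variance trend (prior degrees of freedom 8.35), and two-sided p-values were adjusted by Benjamini-Hochberg, with a threshold of 0.05. SE is limma's moderated one. The p-values measure the spread between 2 biological replicates per group, and their small number limits the precision. The fit was tested on simulated data.

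The replicate numbers of the 6 groups were checked for pairing. The correlations of replicate differences ran from −0.461 to 0.586 over 15 pairs of groups, with 3 above 0.1, so the numbers were not taken to pair samples.

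The members, gene lists, classes and tests were chosen with earlier results of these data known. The genes named were those with 1 gene on the probe set and the highest mean: the 5 smallest p in each direction, the 5 largest differences of each class, the receptor and STAT, and up to 4 members of each list with the largest size. Other genes of the classes, early calls and lists were named after their values were seen. Alternatives were 2 normalizations, other fits and filters, single early times, a floor of 3, removal of a loess trend with gene length, the replicate number as a block and leaving out each array.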

Additional observations from a re-analysis of the deposited data

Results flagged for a closer look

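For 5 of the genes named, both UPD arrays lay above both Mock arrays at 2 h and at 4 h and below both at 10 h, so the arrays lay on opposite sides on the deposited scale. For cindr this depends on that scale: its late difference was −0.60 beside a median of −0.46 over the members, and relative to the medians it fades and does not cross. The late minus early value was −3.10 for Sarm, −1.85 for fry, −1.71 for dome, −1.18 for cindr and −1.18 for lama. The test of this difference was limma's interaction, and none of the 5 passed it, with adjusted p-values from 0.37 to 0.888. In the same order lay 37 of 6731 members (0.55%). At 10 h alone, UPD lay below both Mock arrays in 2757 of all members (41%).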

How the results depend on the processing

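The number of members past the threshold for late minus early, 0 in the reported fit, was 103 with quantile normalization, 30 with arrays shifted to 1 median, 68 and 57 when fitted only on probe sets with a mean above 5 or 7, 539 without array weights, 36 with separate variances for early and 10 h arrays, 19 with values below 3 set to 3 and 44 with the length trend removed. It stayed 0 with no variance trend, with robust moderation, with 2 h or 4 h alone as early and without both weights and trend (chosen after seeing the data), and was 1116 without weights on the mean above 5 (also chosen after seeing the data). Leaving out arrays gave 0 to 1. The early count of 53 was 163, 68, 163, 126, 7, 44, 28 and 88 under the first 8 of these, 9 with no trend, 199 and 20 with 2 h or 4 h alone, 0 and 10 under the added settings, and 11 to 311 without single arrays. The late count of 0 was 228, 114, 137, 94, 1603, 86, 20 and 147 under the same 8, 136 and 2250 under the added ones and 0 to 1 without single arrays. Without Mock 10 h replicate 1 the late minus early call was CG33459, and without replicate 2 it was Idgf1. With the replicate number as a block, in a design without pairing, 0 late minus early, 42 early and 0 late calls were made. The cause of these differences was not tested.

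In quantile normalization, shifted arrays and removed length trend, in this order, the class that grows above Mock held 14, 13 and 14 probe sets, that growing below 0, 1 and 1, above then below 1, 1 and 1, late only above 172, 297 and 209, late only below 295, 361 and 213, fading from above 11, 6 and 2, and fading from below 3, 3 and 2. With 2 h and with 4 h alone as early, growing below held 18 and 33, above then below 1 and 5, fading from above 4 and 47, fading from below 12 and 9, and late only above 15 with 4 h. Without single arrays the classes ranged from 6 to 9 (grows above), 2 to 27 (grows below), 0 to 3 (above then below), 11 to 166 and 782 to 2042 (late only above and below), 6 to 11 and 0 to 9 (fading from above and below). The median late minus early difference was −0.018, 0.069 and −0.024 under the same 3 settings and −0.711 to −0.138 without single arrays.

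Of 69 named genes, 59 kept their direction under all alternatives. With the length trend removed the value was 0.76 for Stat92E, 0.0090 for drongo, 0.12 for CG32772, 0.18 for aos, 0.038 for Usp15-31, 0.12 for Ctps, 0.17 for Pat1 and 0.13 for CG1628. Stat92E was also 0.26 with quantile normalization, 0.45 with shifted arrays, 0.18 with 2 h alone, and 0.019, 0.031, 0.25 and 0.28 without UPD 4 h 1, Mock 4 h 1, UPD 10 h 1 and Mock 10 h 2. Without single arrays Stat92E ranged from −0.37 to 0.28, chico from −0.29 (without Mock 10 h replicate 1) to 3.87 and mod from −0.0088 (without the same array) to 1.86. At most 2 arrays per group, and the wide spread at 10 h, limit what could be called.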
